A study of Homo sapiens with 6 samples.

Results

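The genes described here are 34 interferon-stimulated genes, a list of transcripts that cells switch on when interferon reaches them. They were taken by symbol, with 1 probe set for each gene, the one with the highest mean signal over the 6 arrays (an _x_at probe set only where the gene had no other). By this rule 33 of the 34 genes had a probe set, out of 19775 genes with one on the HGU133 Plus2.0 array. STAT2 had no probe set with a single gene symbol in the annotation used and was not analysed here. Total RNA of HT-29 cells, a cell line grown from a human colorectal adenocarcinoma, was hybridized on 6 arrays. On 3 arrays the cells had been treated with 5-aza-2′-deoxycytidine (5-Aza), an inhibitor of DNA methyltransferases that is incorporated into replicating DNA, at 10 µM for 72 hours in medium without serum. The other 3 arrays held control cells, which received the solvent of the drug, water and acetate, in place of it. The sources do not state if arrays of 1 group had cultures of their own. The p-values therefore measure the spread between arrays and nothing more, and all results come from 1 cell line, 1 dose and 1 time.

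Interferons are secreted proteins that bind receptor pairs on the cell surface. The receptor of type I interferons activates the kinases JAK1 and TYK2, which phosphorylate transcription factors of the STAT family, STAT2 among them. STAT2 acts with IRF9 in a complex that binds the interferon-stimulated response element in the promoters of its target genes. The proteins made in response sense viral RNA or DNA, cut or trap viral RNA, block translation and release of virus, attract lymphocytes, or sensitize cells to death. In cancer cells, inhibitors of DNA methyltransferases are known to induce such genes in some lines, through double-stranded RNA from repeats that lose methylation. Double-stranded RNA, interferon protein and DNA methylation were not measured on these arrays.

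Most members had a higher signal with 5-Aza, by a small amount. Of the 33 measured members, 30 (90.9%) had a positive log2 fold change, that is 5-Aza minus control on the scale log2(signal + 1), against 56.9% of all 54614 probe sets and 54.9% of genes. The median over the members was 0.40, against 0.06 over all probe sets and 0.04 over 1 probe set per gene. Centring each array on its median moved all probe sets to a median of -0.12 and left 24 of the 33 members positive, with a median of 0.22. On 9 members, namely IFIT3, OAS2, OAS3, OASL, MX1, MX2, ISG20, DDX60 and IFI6, every 5-Aza array lay above every control array. That is 27.3% of the members, where 9.29% of all probe sets, 9.92% of genes and 10.4% of probe sets above the median signal did so. No member had every 5-Aza array below every control array, which held for 5.22% of all probe sets. For a member whose groups do not overlap, the exact two-sided permutation test of the 6 arrays gives p = 0.1, the smallest it can give with 3 arrays against 3.

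No single member could be called after correction for the number of probe sets. In limma, 0 members passed an adjusted p under 0.05, and the smallest adjusted p among them was 0.596. Across the whole array 0% of probe sets passed, with a smallest adjusted p of 0.0903. With the unadjusted threshold of 0.025, OASL passed as the 1 higher member and 0 passed as lower, beside 2.97% of all probe sets that were higher and 1.05% that were lower. With an unadjusted threshold of 0.05, IFIT3, OASL, MX2 and ISG20 (4 members) were higher and 0 lower, beside 5.26% and 1.97% of all probe sets. The number of arrays limits what these tests can show.

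**Figure D1:**
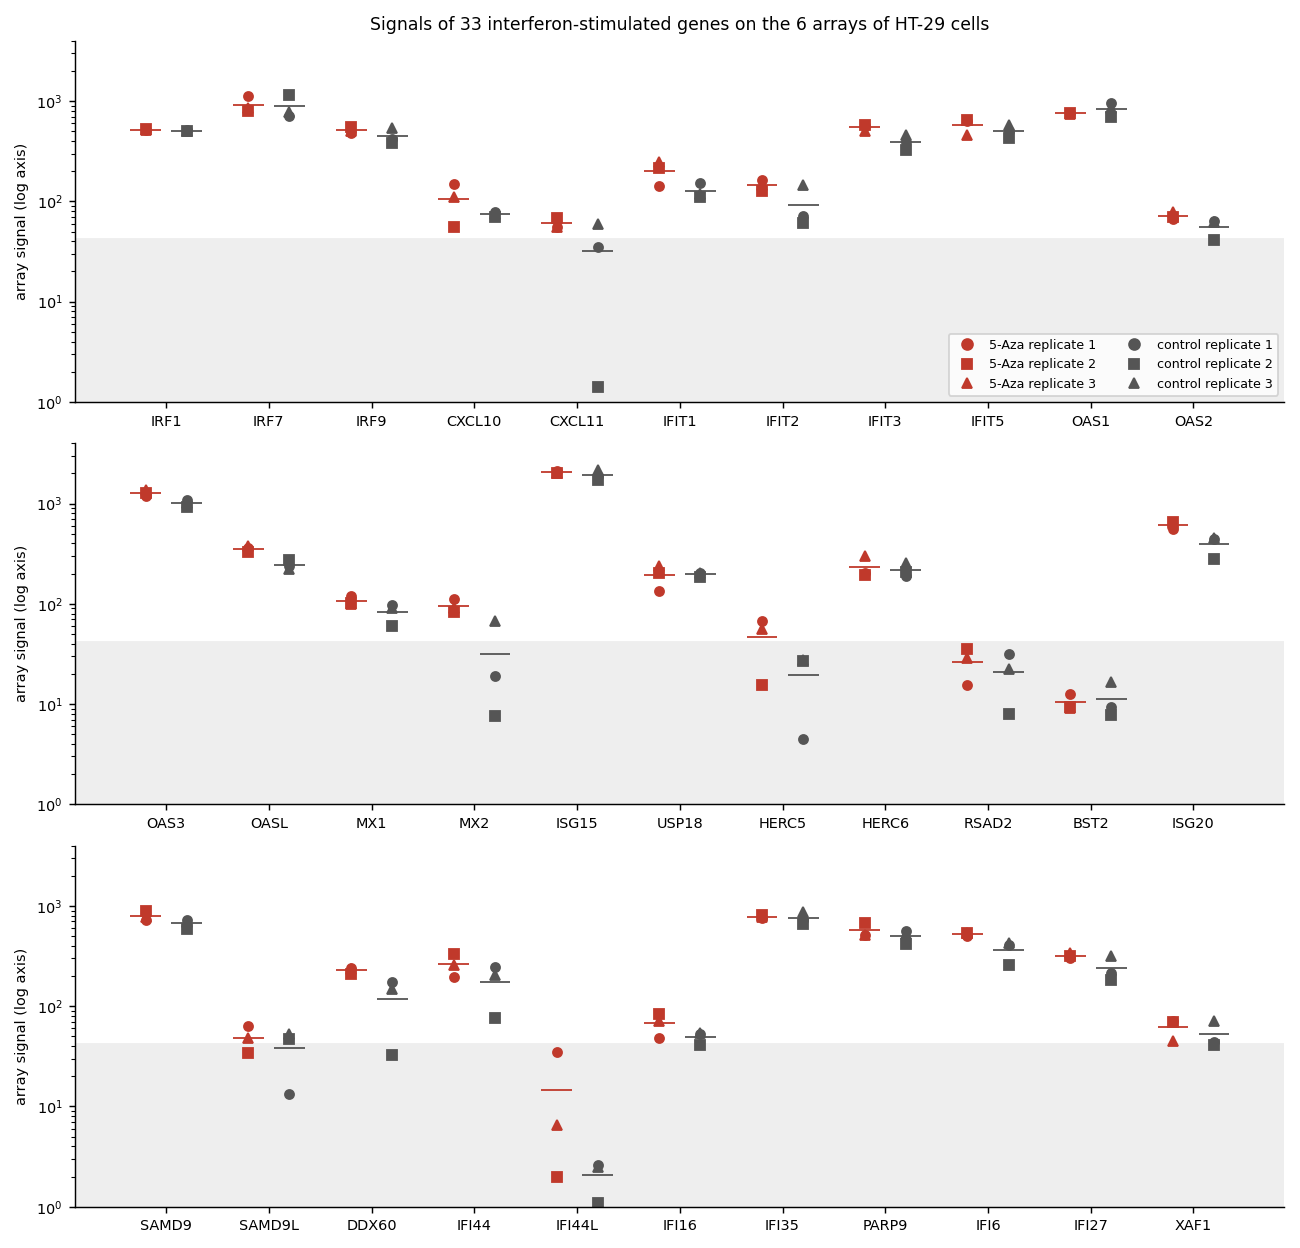
Array signal (log axis) of the 33 measured interferon-stimulated genes, with 1 point for each array, 5-Aza in red at the left and control in grey at the right of each gene, and a horizontal bar at the group mean (n = 3). The grey band reaches up to 42.0, the highest background of any array, and the square of control replicate 2 is the lowest of the 6 points for 26 of the 33 genes.

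One control array carries part of this difference. Control replicate 2 had the lowest signal of all 6 arrays for 26 of the 33 members (78.8%), while it was the lowest for 23.4% of all probe sets and for 25.6% of those above the median signal. Averaged over the members, the log2 deviation from each gene's mean was 0.31, 0.18 and 0.28 on the 5-Aza arrays and -0.22, -0.63 and 0.08 on the control arrays. So the 3 5-Aza arrays were all above the members' mean, control replicate 3 was slightly above it, and control replicate 2 stood apart below it. The spread between arrays followed, with a median SD over the members of 0.17 on the log2 scale within 5-Aza and 0.35 within control, and the control SD was the larger for 25 of 33 members, against 58.5% of all probe sets. The same array was the lowest of the 6 for 22 of 62 other interferon-stimulated genes (35.5%), for 5 of 15 signalling genes and for 0 of 6 receptor genes.

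Without control replicate 2 the shift was smaller, and most of it was still there. The median log2 fold change of the members was 0.28, against 0.05 over all probe sets, and 28 of 33 members were positive. With 3 arrays against 2, 10 members had every 5-Aza array above every control array (30.3%, against 15.9% of all probe sets), and 1, OAS1, had them all below. Leaving out a control array cannot undo a separation, so the 9 members named above were bound to remain among the 10. IRF7 was added. OASL was again the only member with an unadjusted p under 0.025, with a log2 fold change of 0.62 and an adjusted p of 0.479 in limma. Values of single genes moved much more, to 0.49 for DDX60, 1.36 for MX2 and 0.20 for IFI44. All results below are given with all 6 arrays, with the value without control replicate 2 beside those that this array moved by a wide margin.

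**Figure D2:**
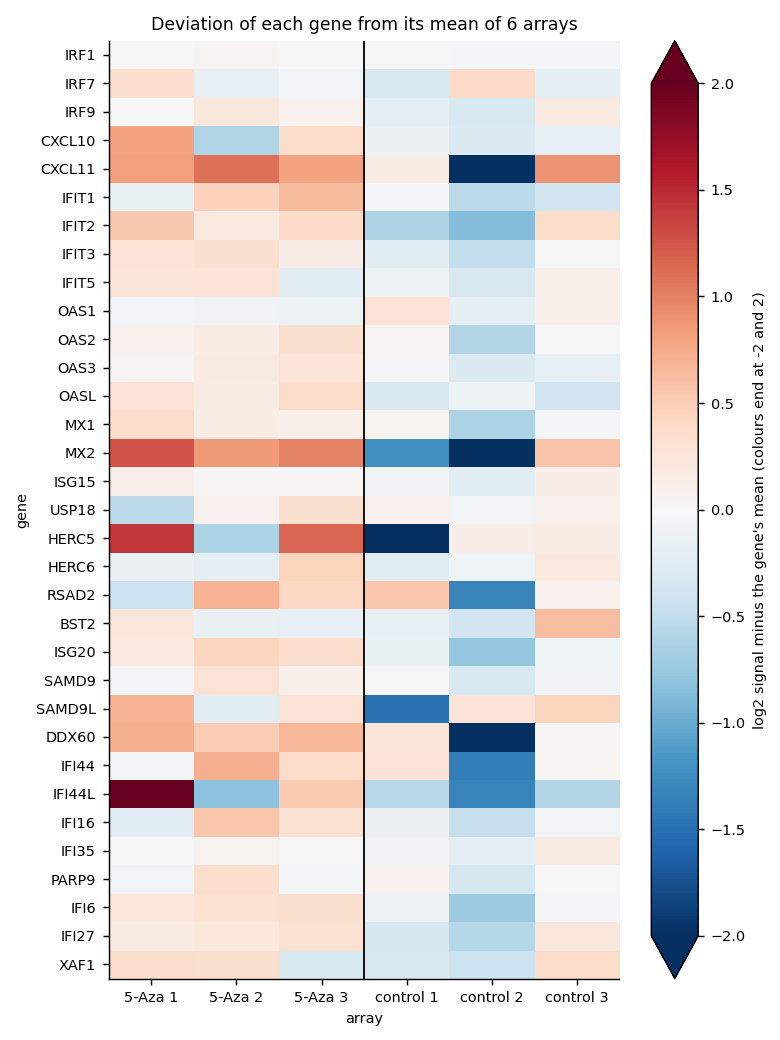
Deviation of each gene on each array from the gene's own mean over the 6 arrays (log2 units, colours end at -2 and 2), with 5-Aza arrays left of the line and control arrays right of it. Control replicate 2 is blue for most genes, with a mean deviation of -0.63 over the 33 genes, while IRF7, HERC5 and SAMD9L were above their means on it.

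The promoter windows of most matched members hold the letters of the element described above. RefSeq promoter windows of GRCh38.p14, from 250 bases before to 50 bases after a transcript start, were matched for 28 of the 34 members. IRF7, IFIT2, OAS2, OASL, MX2 and USP18 were not matched. The core of the interferon-stimulated response element was searched as GAAANNGAA on both strands, overlapping matches included, and was present in 19 of the 28 matched members (67.9%), against 9.86% of 27305 genes. The gamma-activated sequence, an element of genes that respond to interferon gamma, was searched as TTCNNNGAA, which reads the same on both strands, and was present in 9 of the 28 (32.1%), against 9.38% of genes. The members' windows had few CpG dinucleotides, the sites that DNA methyltransferases modify, with a median of 7.5 in the window richest in them, against 16 over all genes. These are matches of letters in a short window, and neither binding nor methylation was measured there.

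The windows of 6 of the 9 members with separate groups could be read, on the build GRCh38.p14, and 5 are printed because the groups did not overlap on these genes. MX1, with 3 windows, is left out, and ISG15, whose groups overlapped, is set beside them. Capitals mark each match to GAAANNGAA or to its reverse complement TTCNNTTTC. IFIT3 (chr10:89332279-89332578, plus strand) holds 3 matches, of which 2 overlap. It has 2 windows, and the one with more matches is printed, while the other holds 2. OAS3 (chr12:112938224-112938523, plus strand) holds 2, ISG15 (chr1:1013247-1013546, plus strand) 3 in 1 run, and ISG20 (chr15:88638766-88639065, plus strand) 1. DDX60 (chr4:168318703-168319002, minus strand) holds 2 and IFI6 (chr1:27672143-27672442, minus strand) 3. In each line the letters run 5′ to 3′ along the gene.
IFIT3: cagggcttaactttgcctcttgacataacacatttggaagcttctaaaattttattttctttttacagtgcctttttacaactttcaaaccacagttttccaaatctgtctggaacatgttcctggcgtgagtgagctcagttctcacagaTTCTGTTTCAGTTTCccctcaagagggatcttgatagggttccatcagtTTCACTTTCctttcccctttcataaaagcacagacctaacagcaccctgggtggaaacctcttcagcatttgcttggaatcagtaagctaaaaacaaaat
OAS3: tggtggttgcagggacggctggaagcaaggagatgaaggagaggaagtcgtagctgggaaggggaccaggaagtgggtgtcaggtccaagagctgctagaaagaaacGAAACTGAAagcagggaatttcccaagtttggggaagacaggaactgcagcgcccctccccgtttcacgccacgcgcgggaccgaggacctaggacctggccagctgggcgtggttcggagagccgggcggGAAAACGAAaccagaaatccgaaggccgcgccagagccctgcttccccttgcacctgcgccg
ISG15: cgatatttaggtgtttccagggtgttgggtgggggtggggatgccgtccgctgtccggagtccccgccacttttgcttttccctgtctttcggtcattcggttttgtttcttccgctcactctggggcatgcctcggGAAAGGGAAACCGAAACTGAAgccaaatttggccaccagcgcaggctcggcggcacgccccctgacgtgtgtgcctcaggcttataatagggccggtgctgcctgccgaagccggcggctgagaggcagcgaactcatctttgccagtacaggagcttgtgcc
ISG20: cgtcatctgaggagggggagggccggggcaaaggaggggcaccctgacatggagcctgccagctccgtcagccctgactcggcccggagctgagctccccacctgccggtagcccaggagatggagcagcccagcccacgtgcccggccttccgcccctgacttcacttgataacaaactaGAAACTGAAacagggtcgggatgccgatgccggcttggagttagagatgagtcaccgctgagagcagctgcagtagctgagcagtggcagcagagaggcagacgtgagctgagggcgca
DDX60: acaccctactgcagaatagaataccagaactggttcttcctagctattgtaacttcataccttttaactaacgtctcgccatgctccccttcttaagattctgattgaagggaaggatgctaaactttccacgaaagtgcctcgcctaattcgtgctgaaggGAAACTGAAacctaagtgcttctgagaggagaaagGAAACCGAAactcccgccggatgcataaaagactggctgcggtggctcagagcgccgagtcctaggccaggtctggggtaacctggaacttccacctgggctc
IFI6: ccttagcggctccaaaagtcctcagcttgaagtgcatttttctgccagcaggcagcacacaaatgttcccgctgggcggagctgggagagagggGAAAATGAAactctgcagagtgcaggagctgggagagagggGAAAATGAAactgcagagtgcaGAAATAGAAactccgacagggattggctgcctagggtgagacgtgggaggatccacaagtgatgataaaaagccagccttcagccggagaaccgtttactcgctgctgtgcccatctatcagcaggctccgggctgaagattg

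**Figure D3:**
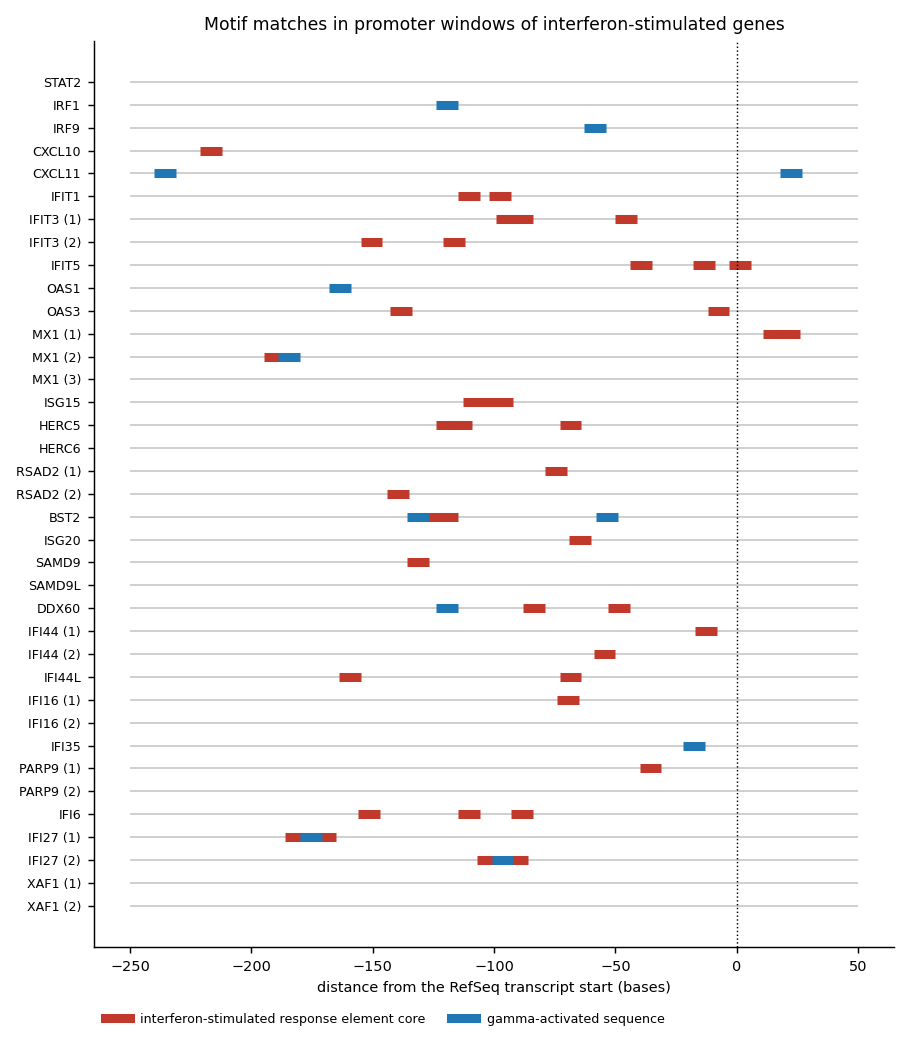
Matches in the 37 RefSeq promoter windows of 28 members, by distance from the transcript start in bases, with the interferon-stimulated response element core in red and the gamma-activated sequence in blue. Numbers in parentheses mark several windows of 1 gene, and 24 windows hold at least 1 red match.

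The 3 measured transcription factors among the members gave small differences. IRF1, which activates many of these genes in its own right, had signals of 509.4, 528.0 and 515.7 with 5-Aza, against 510.2, 499.9 and 500.6 in control cells, and its log2 fold change was 0.04 ± 0.13 (SE). IRF7, which drives interferon genes themselves, had 1123, 792.3 and 857.8 with 5-Aza and 711, 1161.8 and 779.8 in control cells (0.08 ± 0.26, or 0.30 without control replicate 2). IRF9, the DNA-binding partner of STAT2, had 475.6, 552.7 and 503.6 with 5-Aza and 418.2, 382.9 and 537.3 in control cells (0.21 ± 0.19, or 0.10 without that array). The groups overlapped for all 3, and the differences were about as large as their standard errors or smaller. A second probe set of IRF1, with a lower mean signal, did separate the groups, averaging 396 with 5-Aza and 301 in control cells, with a log2 fold change of 0.40 and an unadjusted p of 0.12 in limma.

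The IFIT genes, which lie side by side on chromosome 10, encode proteins that bind viral RNA and hold back its translation, and all 4 were higher on average with 5-Aza. IFIT3 had signals of 563.2, 571.9 and 503.8 with 5-Aza, against 393.8, 326.0 and 456.6 in control cells. Its groups did not overlap, with a log2 fold change of 0.49 ± 0.18 (SE) and an adjusted p of 0.672 in limma. That change was 0.36 without control replicate 2, and the promoter of IFIT3 is the first one printed above. A second probe set of IFIT3 averaged 250 with 5-Aza and 233 in control cells, and there the groups overlapped. IFIT1 had 143.6, 216.8 and 244.4 with 5-Aza and 152.5, 109.7 and 119.2 in control cells, which is a log2 change of 0.64 ± 0.27, and 5-Aza replicate 1 fell among the control arrays. IFIT2 had 162.8, 128.1 and 146.0 with 5-Aza and 72.2, 60.7 and 144.5 in control cells (0.75 ± 0.36, or 0.50 without control replicate 2). There control replicate 3 was as high as the 5-Aza arrays. The second probe set of IFIT2 gave 0.87, with an unadjusted p of 0.0413 in limma and overlapping groups. IFIT5 had 636.3, 641.0 and 460.6 with 5-Aza and 497.8, 423.8 and 571.7 in control cells (0.21 ± 0.22, or 0.10 without control replicate 2), with groups that overlapped widely.

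The OAS enzymes sense double-stranded RNA and make a messenger that turns on RNase L, which then cuts RNA. OAS3 had signals of 1175.4, 1274.4 and 1366.4 with 5-Aza, against 1094.7, 927.1 and 1004.1 in control cells, which is a log2 change of 0.34 ± 0.15 with separate groups. A second probe set of OAS3, with a lower signal, gave 0.14 with overlapping groups. OAS2 had 66.2, 69.3 and 77.7 with 5-Aza and 63.8, 41.1 and 62.1 in control cells (0.37 ± 0.22). Its groups were separate by a small margin that rested on low signals, and without control replicate 2 the value was 0.17. Of its other probe sets, 1 gave 0.39 and 1 gave -0.42, both with overlapping groups and some arrays at background. OAS1, on the same stretch of chromosome 12, went the other way on average, with 763, 756.8 and 740.6 with 5-Aza and 967.9, 694.1 and 853.2 in control cells (-0.14 ± 0.18). Its groups overlapped only through control replicate 2. Without that array all 5-Aza values lay below control, with a log2 fold change of -0.27 and an unadjusted p of 0.14 in limma. A second probe set of OAS1 gave -0.03, and there control replicate 3 lay below every 5-Aza array.

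OASL, a relative of the OAS enzymes that lacks their activity and strengthens RNA sensing by RIG-I, had the smallest p among the members. Its signals were 359.3, 326.3 and 377.2 with 5-Aza, against 236.7, 274.8 and 221.6 in control cells, or 354 ± 25.8 and 244 ± 27.4 as means (SD, n = 3 each). The log2 fold change was 0.54 ± 0.16 (SE), a ratio of 1.45, with an unadjusted p of 0.0179 and an adjusted p of 0.596 in limma. Control replicate 2 was the highest control array here, unlike for most members. The second probe set of OASL also separated the groups, averaging 249 with 5-Aza and 205 in control cells, with a log2 fold change of 0.28.

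The MX genes, neighbours on chromosome 21, encode dynamin-like GTPases that block incoming viruses, MX1 influenza virus and MX2 HIV among them. MX2 had signals of 110.6, 83.6 and 91.7 with 5-Aza, against 19.0, 7.6 and 68.1 in control cells. All 3 5-Aza arrays were above background, taken as the highest signal of the TrpnX control probe sets of the array (22.6 to 31.8 on 5-Aza arrays and 23.8 to 42.0 on control arrays), but only 1 control array was. The log2 fold change of 2.07 ± 0.77 therefore depends on the constant added before the logarithm, and it was 1.43 with 16 added and 1.36 without control replicate 2. MX1 had 119, 102.2 and 99.4 with 5-Aza and 96.6, 59.4 and 89.9 in control cells (0.40 ± 0.24). Its groups were separate by a margin of a few units, and the value was 0.19 without control replicate 2.

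Genes of the ISG15 system differed little where the signal was well above background. ISG15, a ubiquitin-like protein joined to other proteins and also secreted, ranged from 2002.4 to 2115.1 with 5-Aza and from 1699.8 to 2153.8 in control cells, which is a log2 change of 0.11 ± 0.16 (0.03 without control replicate 2) with overlapping groups. Its promoter is printed above. USP18, the protease that removes ISG15 and also damps interferon receptor signalling, ranged from 133.3 to 240.8 with 5-Aza and from 186.6 to 204.8 in control cells (-0.08 ± 0.26, or -0.13 without control replicate 2). HERC6, a close relative of the ISG15 ligase HERC5 and its neighbour on chromosome 4, had 202.9, 193.1 and 299.4 with 5-Aza and 187.5, 206.6 and 252.9 in control cells (0.09 ± 0.24). These 3 had overlapping groups, and the control range lay within the 5-Aza range for USP18 and nearly so for HERC6. HERC5, the ligase that attaches ISG15 in human cells, had 67.3, 15.5 and 56.2 with 5-Aza and 4.5, 27.0 and 27.5 in control cells. Since 2 5-Aza arrays and 0 control arrays were above background, the difference is a bound, at least 1.21-fold higher with 5-Aza (adjusted p of 0.809 in limma), and the groups overlapped through 5-Aza replicate 2. Such a bound sets the mean log2 signal of the 5-Aza arrays against that of the control arrays' background.

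**Figure D4:**
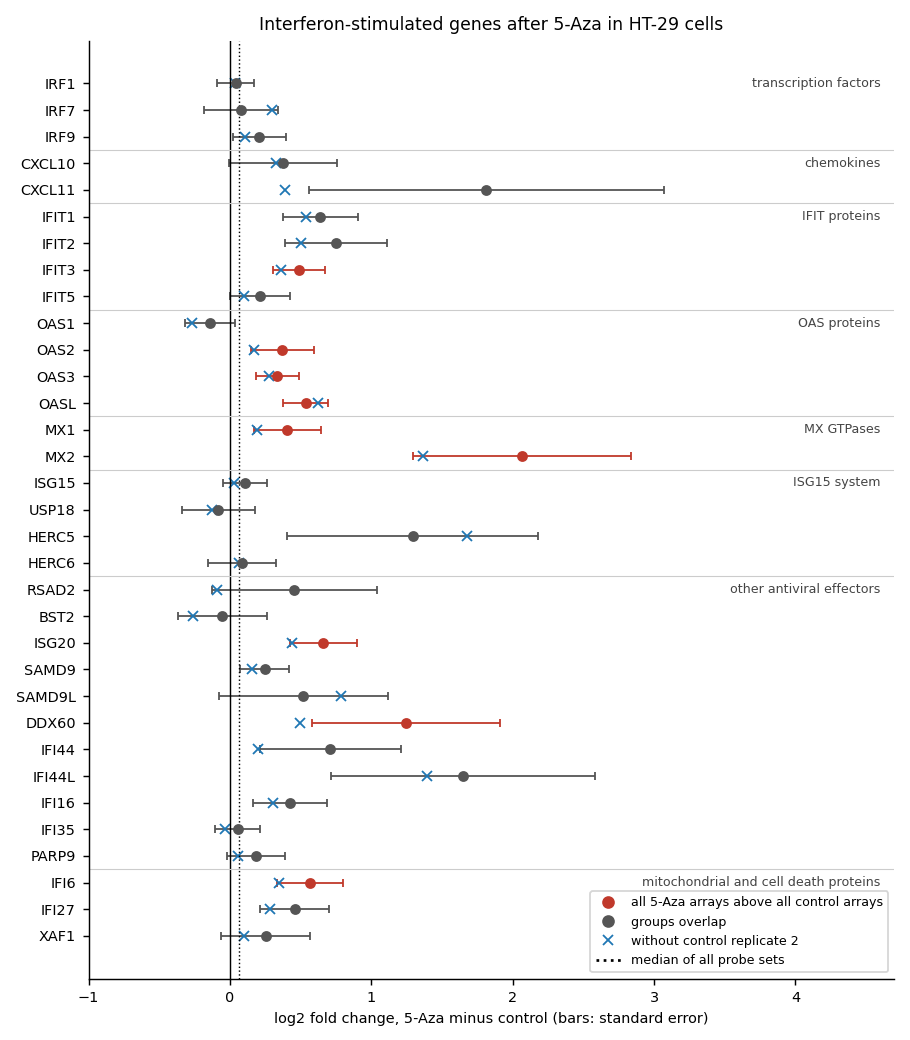
Log2 fold change, 5-Aza minus control, of each member by role (points, with bars of 1 standard error, n = 3 arrays each), in red where every 5-Aza array was above every control array. Crosses give the value without control replicate 2, the dotted line marks the median of all probe sets at 0.06, and 30 of the 33 points lie right of 0.

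Of the 11 other antiviral effectors, 10 had a positive log2 fold change and 2 had separate groups with 5-Aza higher, beside 56.9% and 9.29% of all probe sets. Their median log2 fold change was 0.46. ISG20, an exonuclease that degrades RNA, had signals of 554.2, 651.0 and 617.9 with 5-Aza, against 440.3, 281.9 and 453.2 in control cells, which is a log2 change of 0.66 ± 0.24 that was 0.44 without control replicate 2. A second probe set of ISG20 gave 0.51 with overlapping groups. DDX60, a helicase linked to RIG-I signalling, had 240.7, 209.3 and 233.8 with 5-Aza and 174.2, 32.9 and 149.3 in control cells. The 5-Aza arrays lay close together, with an SD of 16.5 around 228, while control replicate 2, at 32.9, was at background. This 1 array set the size of the fold, which was 1.25 ± 0.67 on the log2 scale with it and 0.49 ± 0.17 without it, and the groups were separate either way.

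IFI44 and IFI44L, neighbours on chromosome 1 and named for their response to interferon, both had overlapping groups. IFI44 had 195.9, 331.4 and 259.3 with 5-Aza and 243.5, 76.2 and 204.8 in control cells (0.71 ± 0.50, or 0.20 without control replicate 2). IFI44L had 34.8, 2.0 and 6.6 with 5-Aza and 2.6, 1.1 and 2.5 in control cells, and only 5-Aza replicate 1 was above background, so that no fold is given for it. SAMD9 and SAMD9L, a pair on chromosome 7 known to restrict poxviruses, had overlapping groups too. SAMD9 had 718.9, 889.4 and 776.2 with 5-Aza and 729.9, 587.8 and 694.2 in control cells (0.25 ± 0.17, or 0.15 without control replicate 2). SAMD9L had 64.2, 33.8 and 47.8 with 5-Aza and 13.2, 47.6 and 53.4 in control cells (0.52 ± 0.60, or 0.79 without that array). Control replicate 1 was under background for SAMD9L, and the value was 0.33 with 16 added.

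The remaining effectors showed no separation of the groups. RSAD2 (viperin), an enzyme that makes a nucleotide that stops viral polymerases, ranged from 15.6 to 35.1 with 5-Aza and from 7.9 to 31.8 in control cells. BST2 (tetherin), which holds budding virus at the cell surface, was under background on all 6 arrays, from 9.2 to 12.5 with 5-Aza and from 7.8 to 16.7 in control cells. The DNA sensor IFI16 ranged from 48.5 to 84.5 with 5-Aza and from 41.1 to 54.6 in control cells (0.43 ± 0.26). Its 2 further probe sets also had overlapping groups, with larger differences. Of these, 1 gave 0.84, and 1 averaged 35.9 with 5-Aza and 7.43 in control cells, where no control array was above background. IFI35 and PARP9 were well above background and nearly level, at 0.05 ± 0.16 and 0.18 ± 0.21, or -0.03 and 0.05 without control replicate 2. A second probe set of PARP9, an ADP-ribosyltransferase family member that works with DTX3L, separated the groups at 0.36.

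Among proteins of mitochondria and cell death, IFI6, a small membrane protein that restrains apoptosis, had signals of 503.5, 532.9 and 540.7 with 5-Aza, against 404, 260.1 and 422.8 in control cells. Its groups were separate, with a log2 fold change of 0.57 ± 0.23, or 0.35 without control replicate 2. IFI27, of the same protein family, ranged from 304.8 to 337.1 with 5-Aza and from 181.9 to 317.5 in control cells (0.46 ± 0.24, or 0.28 without control replicate 2), and only control replicate 3 reached the 5-Aza range. XAF1, which opposes the apoptosis inhibitor XIAP, ranged from 44.7 to 71.1 with 5-Aza and from 40.8 to 72 in control cells on its brightest probe set (0.25 ± 0.31, or 0.10 without control replicate 2). Its other probe sets disagreed with each other, as 1 gave -0.41 and 1 averaged 48.5 with 5-Aza and 7.97 in control cells, where no control array was above background and the signal was at least 1.45-fold higher with 5-Aza.

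The chemokines CXCL10 and CXCL11, which attract T cells through the receptor CXCR3, gave no stable difference. CXCL10 ranged from 55.6 to 148.3 with 5-Aza and from 69.3 to 78.5 in control cells (0.38 ± 0.38), so the control range lay inside the 5-Aza range. CXCL11 ranged from 56.0 to 68.6 with 5-Aza and from 1.4 to 59.3 in control cells. Its log2 fold change of 1.81 ± 1.25 was 0.39 without control replicate 2, and its second probe set gave -0.39.

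Altogether 18 members had several probe sets with a single symbol, which added 22 probe sets to those chosen by the rule. Of the 22, 18 had the same direction as the chosen probe set and 4 the opposite one. Groups were separate with 5-Aza higher on 5 of the 22, for IRF1, OASL, SAMD9L, PARP9 and XAF1, and with 5-Aza lower on 0. The probe sets of SAMD9L and XAF1 among these had an unadjusted p under 0.025, and both were under background on every control array. Over all 55 probe sets of the members, 14 had separate groups with 5-Aza higher. That held for 9.29% of all probe sets on the array, and 2.97% of them were higher with an unadjusted p under 0.025 in limma.

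Upstream of the members, interferon transcripts were mostly at background. Of 18 measured interferon genes, only IFNL1 was above background on all 6 arrays, with 63.2, 77.7 and 52.3 with 5-Aza and 51.1, 73.3 and 98.1 in control cells. IFNB1, the type I interferon that most cell types make, was under background on all 6 arrays, with 5.2, 2.8 and 4.7 with 5-Aza and 3.2, 22.0 and 6.8 in control cells. The median log2 fold change of the interferons was -0.43, a value made of signals at background. IFNA8 had an unadjusted p of 0.0211 in limma and separate groups, with 23.2, 13.6 and 37.1 with 5-Aza and 12.1, 2.4 and 2.4 in control cells, but it was above background on 1 array. IFNA7, with a log2 fold change of -1.70, was above background on 1 5-Aza array and 2 control arrays, and IFNK, with 1.40, on 1 5-Aza array and 0 control arrays, and both had overlapping groups.

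The receptor genes were all well above background and all 6 higher on average with 5-Aza (4 of 6 after median centring), with a median log2 fold change of 0.28. IFNGR1, the ligand-binding chain of the type II receptor, had signals of 3416, 3330 and 3443 with 5-Aza, against 2438, 2684 and 2507 in control cells, which is a log2 change of 0.42 ± 0.13 with an unadjusted p of 0.0236 in limma. IFNAR1, of the type I receptor, had 424.1, 412.8 and 361.3 with 5-Aza and 324.2, 336.1 and 282.2 in control cells (0.35 ± 0.16). IFNGR2 was separate too, at 0.21 ± 0.15, which makes 3 of 6 receptor genes with separate groups. With 5-Aza higher, 9.29% of all probe sets were separate. IFNAR2, IFNLR1 and IL10RB gave 0.08 ± 0.39, 0.36 ± 0.30 and 0.13 ± 0.14, with overlapping groups.

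Signalling genes shared no direction, with 8 positive and 7 negative log2 fold changes (3 positive after median centring). Of 15 measured, 0 passed the unadjusted threshold of 0.025 in either direction, with the threshold of 0.05 there were 0 higher and 1 lower, and the median log2 fold change was 0.01. The kinases JAK1 and TYK2 gave 0.11 ± 0.14 and 0.01 ± 0.15. The 3 genes with separate groups were all lower with 5-Aza, which held for 5.22% of all probe sets. IRF8, a transcription factor of myeloid cells, had 63.5, 15.9 and 20.7 with 5-Aza and 88.1, 70.4 and 150.9 in control cells, which is a log2 change of -1.78 ± 0.60. Since only 1 5-Aza array was above background, this value depends on the constant added, and it was -1.34 with 16 added. IRF5 and the phosphatase PTPN6 gave -0.32 ± 0.18 and -0.14 ± 0.13, and IRF5 gave -0.19 without control replicate 2. Leaving out that array moved SOCS1 from 1.14 to 0.10 and SOCS3 from -0.22 to -0.71.

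Of 62 measured further interferon-stimulated genes, 44 had a positive log2 fold change (32 after median centring), with a median of 0.19. Separate groups with 5-Aza higher were seen for 16 (25.8%), and with 5-Aza lower for 0. Over all probe sets, 56.9% were positive, 9.29% separate and higher, and 5.22% separate and lower. IFITM1, a membrane protein that hinders fusion of viruses, had signals of 282.4, 271.7 and 338.7 with 5-Aza, against 130.8, 142.4 and 126.0 in control cells, which is a log2 change of 1.15 ± 0.16 with an unadjusted p of 0.000593 in limma. TAP1, which carries peptides to HLA class I, gave 0.56 ± 0.15, and TRIM21, an antibody receptor inside cells, 0.46 ± 0.13. These 3 were the genes of that list with an unadjusted p under 0.025 in limma, and 6 were under 0.05, all higher with 5-Aza. Beside them, 2.97% and 5.26% of all probe sets were higher at these thresholds. Also with separate groups were B2M, the light chain of HLA class I (0.37 ± 0.14), HLA-B (0.37 ± 0.15) and the immunoproteasome subunit PSMB9 (1.94 ± 0.86, with control replicate 2 at 9.2). HLA-B and IFITM3 were read on probe sets that can also bind transcripts of related genes. The others with separate groups were LAMP3 at 1.18 ± 0.43, UBE2L6 at 0.55 ± 0.20, CD274 at 0.57 ± 0.25, BTN3A1 at 0.56 ± 0.22, TLR3, GBP3, SHFL, DTX3L, IFITM3 and TRIM38, which ranged from 0.22 to 0.46. GBP1 gave 1.38 ± 0.62 with overlapping groups, but only 1 control array was above background, and it was 0.90 with 16 added and 2.01 without control replicate 2. Without that array PSMB9 gave 1.02, TRIM38 0.11 and LAMP3 1.41. Of the genes above with an unadjusted p under 0.025 in limma, IFITM1 still passed without it. TAP1, TRIM21, IFNGR1 and IFNA8 did not, at 0.0270, 0.0260, 0.0272 and 0.0691 in limma. Their log2 fold changes were then 0.53, 0.48, 0.46 and 1.83, with groups bound to stay separate, and fewer arrays give the test less power. In the same fit GBP1 passed as higher, at 0.0041 in limma with separate groups. The interferon gene IFNA1 passed as lower, at 0.0220 in limma, but was under background on all 6 arrays.

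**Figure D5:**
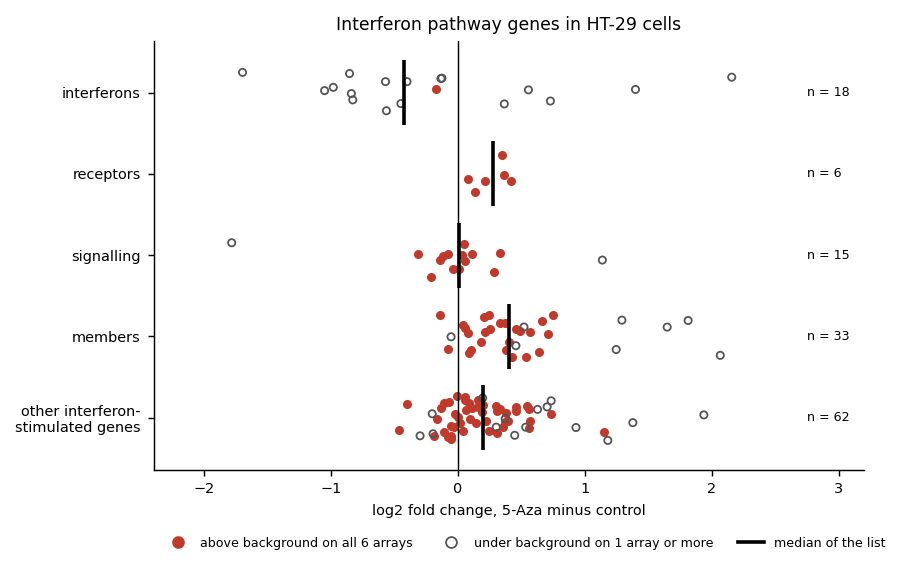
Log2 fold change, 5-Aza minus control, of the genes of each part of the interferon pathway (1 point per gene, filled where the signal was above background on all 6 arrays, with a bar at the median of the list). The medians were -0.43 for 18 interferons, 0.28 for 6 receptors, 0.01 for 15 signalling genes, 0.40 for the 33 members and 0.19 for 62 other interferon-stimulated genes.

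The arrays carried the markers of colon epithelium, with EPCAM, CDH1, keratins and LGALS4 among the 11 of 13 above background on all 6 arrays, while CDX1 was on none. Leukocyte markers were near background, with 0 of 9 above it on all 6 arrays. Their summed signal was higher with 5-Aza, from 282.7 to 403.2, than in control cells, from 142.5 to 271.2, with CD3E, MS4A1 and CSF1R above background on all 3 5-Aza arrays. Of the 9, 5 were higher on average with 5-Aza and 4, PTPRC, CD3D, CD14 and LILRA4, were lower. Endothelial markers summed to 223.4 to 265.6 with 5-Aza and to 133.1 to 177.6 in control cells, and fibroblast markers to 472 to 538.7 with 5-Aza and to 305.4 to 526.5 in control cells. The log2 ratio of the 3′ to the 5′ probe set of ACTB, a sign of RNA integrity, was 0.73 ± 0.09 with 5-Aza and 0.54 ± 0.08 in control cells (SD, n = 3 each). The part of these differences in the members' values was not tested. In RNA from whole cultures, more cells with a transcript and more transcript in each cell cannot be told apart.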

How the data were processed

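The deposited table holds linear intensity values made by the authors, who per the submitters' processing notes used the affy package (version not given in the sources used here), with 1 value for each of 54675 probe sets and 6 arrays. On every array the mean, leaving out the lowest and highest 2%, was 500. Signals were compared as log2(value + 1), with no further normalization, over 54614 probe sets (61 control probe sets left out), with limma 3.58.1 in R 4.3.3, the group as the only term and Benjamini-Hochberg adjustment. The unadjusted threshold of 0.025 is that of the methods. Of all probe sets, 41097 had 1 symbol, 1801 several and 11777 none, and the last 2 kinds were not used for genes.

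Arrays with the same replicate number did not deviate together (correlations of -0.0117, 0.0021 and 0.0097), and they were not treated as pairs. Such correlations cannot show if the cultures were set up in pairs. The members and all gene lists were chosen with earlier results of these data known. Every member is named, with values on each array for those with separate groups or an unadjusted p under 0.025 and for their families. Of the pathway lists, genes that meet either criterion, the 8 largest changes, IFNB1 and the receptors are named. JAK1, TYK2, SOCS1, SOCS3 and IFNA1 were named after their values were seen, as were further probe sets. The code was tested on simulated data. Alternatives were 16 added, quantile normalization, median centring, trend and robust variance, a SAM-type statistic over 20 labelings, probe sets above the median signal, averaging every probe set of each gene, a replicate block and leaving out each array.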

Additional observations from a re-analysis of the deposited data

How the results depend on the processing

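No member passed an adjusted p under 0.05 under any alternative. The number of members higher at an unadjusted p under 0.025, 1 with the chosen settings, was 2 with 16 added, 0 with quantile normalization, 0 with median centring, 6 with trend and robust variance, 3 among probe sets above the median signal, and 0 with a replicate block. It was 0 to 3 when each array was left out in turn, 0 without 5-Aza replicate 3 or control replicate 1 and 3 without control replicate 3. The share of all probe sets under 0.025 is not given here for each alternative. A higher count therefore need not mean a stronger result for the members. Members with every 5-Aza array above every control array numbered 6 with median centring (18.2%, against 4.30% of all probe sets) and 7 with quantile normalization (21.2%, against 7.13%), and 10 to 16 when 1 array was left out, where more probe sets separate by construction (14.5% to 16.3% of all). Those with every 5-Aza array below numbered 2 with median centring, where 15.1% of all probe sets did so, and 0 to 1 without 1 array. The members' median log2 fold change of 0.40 was 0.23 with quantile normalization and 0.22 with median centring, which moves the median of all probe sets to -0.12, and 0.28 (without control replicate 2) to 0.49 (without control replicate 3). Of 33 members, 29 were positive with quantile normalization and 24 with median centring.

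Pathway genes higher at an unadjusted p under 0.025, 5 with the chosen settings, numbered 1 with median centring, 11 with trend and robust variance, 2 with the SAM-type statistic, 9 above the median signal, 2 with a replicate block, and 1 to 4 without 1 array. Those lower, 0 at first, numbered 1 with 16 added, quantile normalization, median centring, trend and robust variance or the SAM-type statistic, and 0 to 1 without 1 array. These counts, too, stand without the share of all probe sets in the same setting. The arrays share only a number, so the replicate block says nothing of pairs.

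The sign of some small log2 fold changes turned. With median centring they were -0.15 for IRF1, -0.11 for IRF7, -0.081 for ISG15, -0.10 for HERC6, -0.13 for IFI35 and -0.0017 for PARP9, and HERC6 was -3.7e-05 with quantile normalization. Leaving out 1 array gave -0.067 to 0.30 for IRF7, -0.26 to 0.16 for USP18, -0.26 to 0.24 for BST2, -0.11 to 0.21 for HERC6, -0.10 to 0.87 for SAMD9L, -0.092 to 0.85 for RSAD2 and -0.033 to 0.16 for IFI35. The other 434 values computed for single members kept their sign, but part of them could not turn. Trend and robust variance, the SAM-type statistic, the replicate block and the probe sets above the median signal leave each log2 fold change as it was. The count of 434 is therefore no measure of stability. For all these values the threshold was an adjusted p under 0.05, which no member passed in any setting. The cause of the sign changes was not tested. Signals near the background of 22.6 to 42.0 limit what can be said of MX2, HERC5, RSAD2, BST2, IFI44L, CXCL11, SAMD9L and DDX60.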
